A study of Caenorhabditis elegans with 18 samples.

Results

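The genes described here are ZK250.13, F56F10.1, C36E6.2, T20F5.6 and uso-1, which are 5 of the 20134 Caenorhabditis elegans genes with a small RNA count. They were chosen on these same libraries, because the small RNAs counted over each of them were lower in the WAGO-1 immunoprecipitate (IP) of dpf-3 deletion animals and the input of the same animals was not. On the scale used here the name "genes losing WAGO-1 enrichment" held for T20F5.6 and uso-1. These 2 genes stood above input in the WAGO-1 IP of animals with an intact dpf-3 and below input in the deletion. F56F10.1 and C36E6.2 already stood below input with dpf-3 intact, and stood further below it in the deletion. ZK250.13 stood below input in the deletion. With dpf-3 intact its log2 fold of -0.76 had a 95% interval of -1.94 to 0.42, which leaves its side of input unsettled.

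WAGO-1 and WAGO-3 are worm-specific Argonautes, proteins that hold short guide RNAs and use them to silence matching transcripts. Their guides are 22G RNAs, which RNA-dependent RNA polymerases copy from a target transcript, so that the guides are antisense to that transcript and carry a 5' triphosphate. A gene with many 22G RNAs in a WAGO is therefore a likely target of that WAGO, and its count is not a level of messenger RNA. DPF-3 belongs to the dipeptidyl peptidase family, enzymes that remove a pair of amino acids from the start of a protein. Of the 5 genes, uso-1 is the worm counterpart of yeast Uso1 and mammalian p115, a long coiled-coil tether that holds vesicles from the endoplasmic reticulum (ER) at the Golgi. F56F10.1 encodes a putative serine protease of peptidase family S28, whose mammalian members include prolylcarboxypeptidase. ZK250.13, C36E6.2 and T20F5.6 are annotated as protein coding without a further name.

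Small RNAs were sequenced from extracts of whole worms staged as L4 larvae and grown at 15 °C on NA22 bacteria on peptone-rich plates. The tagged strains were 1xFLAG::WAGO-1 dpf-3{delta}, 1xFLAG::WAGO-1 and 1xFLAG::WAGO-3, each with 3 IP and 3 input libraries, lettered A to C, for 18 libraries in 6 groups. All of them carry a FLAG tag, and there was no IP from an untagged strain, so reads that bind the beads without the tagged protein are part of every IP value. The series asks whether cutting of Argonautes by a protease governs the small RNAs they hold. The column headers call the deletion dpf-3 null, and its extent is not given in the sources used here. Inputs went through a small RNA purification kit that the IPs did not, and both were treated with a 5' polyphosphatase so that triphosphate ends could be ligated. The labels do not say whether the lettered libraries came from separate cultures, so p-values measure the spread between these libraries only, and fewer cells of a type cannot be told apart from fewer small RNAs per cell.

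IPs held 2206087 to 5649896 reads in genes and intervals and inputs 88761 to 517278, and the precision of a ratio is set by its group with fewer reads over the gene, which for ZK250.13 is an IP in the deletion and in WAGO-3. Levels are counts scaled to 1e+06 per library after TMM (CPM), a scaling that takes most features as equal between libraries. Reads over dpf-3 itself numbered 3, 2 and 1 in the inputs of the deletion, against 11, 16 and 12 in the WAGO-1 inputs, a log2 fold of -1.73 ± 0.59 (SE, edgeR quasi-likelihood test, adjusted p = 0.0199). That call was lost with total counts as the scaling (-0.97, adjusted p = 0.214) and without replicate C of the deletion inputs, and small RNA reads over the gene do not show which bases were deleted.

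The widest difference among the 5 genes was that of ZK250.13, on chromosome II from 1937063 to 1939752 (build ce11, WBGene00235352), and it rested on the fewest reads. It had 0.334, 0.635 and 0.672 CPM in the WAGO-1 IPs of the deletion, against 5.06, 3.43 and 4.12 CPM with dpf-3 intact. The groups did not overlap, although the whole of the evidence was 9 reads in the deletion and 27 in the intact strain, a scaled ratio of 0.134 with an exact 95% interval of 0.0553 to 0.293 for counting error. The inputs went the other way, with 11.5, 37.95 and 18.4 CPM in the deletion and 10.09, 7.35 and 4.20 CPM in intact animals, from 16 and 10 reads. Those groups did not overlap either, but their lowest and highest libraries lay close together. The log2 fold was -2.75 ± 0.52 between the IPs and 1.64 ± 0.62 between the inputs.

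F56F10.1, the putative S28 protease, lies on chromosome X from 872603 to 875948 (WBGene00018984). It stood at 3.84, 2.97 and 2.86 CPM in the deletion IPs and at 13, 23.6 and 22.1 CPM in the intact IPs. Every deletion library was below every intact one, and replicate A was the lowest of the intact libraries. In the inputs it had 65.1, 33.2 and 59.0 CPM in the deletion and 60.5, 33.8 and 39.9 CPM in intact animals, and these ranges overlapped almost fully. The log2 fold between IPs was -2.65 ± 0.24, and between inputs 0.37 ± 0.32.

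C36E6.2 lies on chromosome X from 17452392 to 17455868 (WBGene00016490), and overlaps mlc-2 by 77 bases at its high-coordinate end. Reads over mlc-2, a myosin light chain gene, numbered at most 3 in any of the 6 groups. The deletion IPs had 6.67, 5.72 and 6.21 CPM of C36E6.2, against 46.2, 28.6 and 26.2 CPM in the intact IPs. No libraries of these groups overlapped, and the spread within the deletion IPs was small (6.20 ± 0.48 CPM, against 33.7 ± 11.0 CPM in the intact IPs, SD, n = 3 each). Its inputs had 111, 123 and 84.8 CPM in the deletion and 148, 69.1 and 44.1 CPM in intact animals, with overlapping ranges. The IP fold was -2.33 ± 0.22 on the log2 scale and the input fold 0.43 ± 0.28.

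For T20F5.6, on chromosome I from 3920206 to 3925162 (WBGene00020628), the inputs as well as the IPs separated the genotypes. Its IP levels were 26.02, 27.1 and 28.6 CPM in the deletion and 75.9, 75.4 and 67.7 CPM in intact animals. Its input levels were 72.8, 61.7 and 103 CPM in the deletion and 23.5, 47.1 and 31.5 CPM in intact animals. Both pairs of groups were free of overlap and pointed in opposite directions, with a log2 fold of -1.41 ± 0.12 between IPs and 1.12 ± 0.28 between inputs. The IP difference depended on the scaling, since with total counts per library the gene averaged 29.5 ± 1.80 CPM in the deletion IPs and 35.8 ± 1.73 CPM in the intact IPs, a log2 fold of -0.28.

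The tether gene uso-1, also K09B11.9, spans chromosome IV from 13445390 to 13454798 (WBGene00010713). It had 23.7, 21.8 and 24.0 CPM in the deletion IPs, against 118, 115 and 103 CPM in the intact IPs. Each group was tight, and the deletion libraries lay far below all of the intact ones, at 388 reads in total against 739. The inputs held 80.5, 19.0 and 70.0 CPM in the deletion and 47.1, 52.9 and 44.1 CPM in intact animals. Replicate B of the deletion inputs, with 4 reads, lay below every intact input while replicates A and C lay above them. The log2 fold was -2.25 ± 0.12 between IPs and 0.28 ± 0.30 between inputs, and the second turned to -0.09 without replicate A of the deletion inputs.

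**Figure D1:**
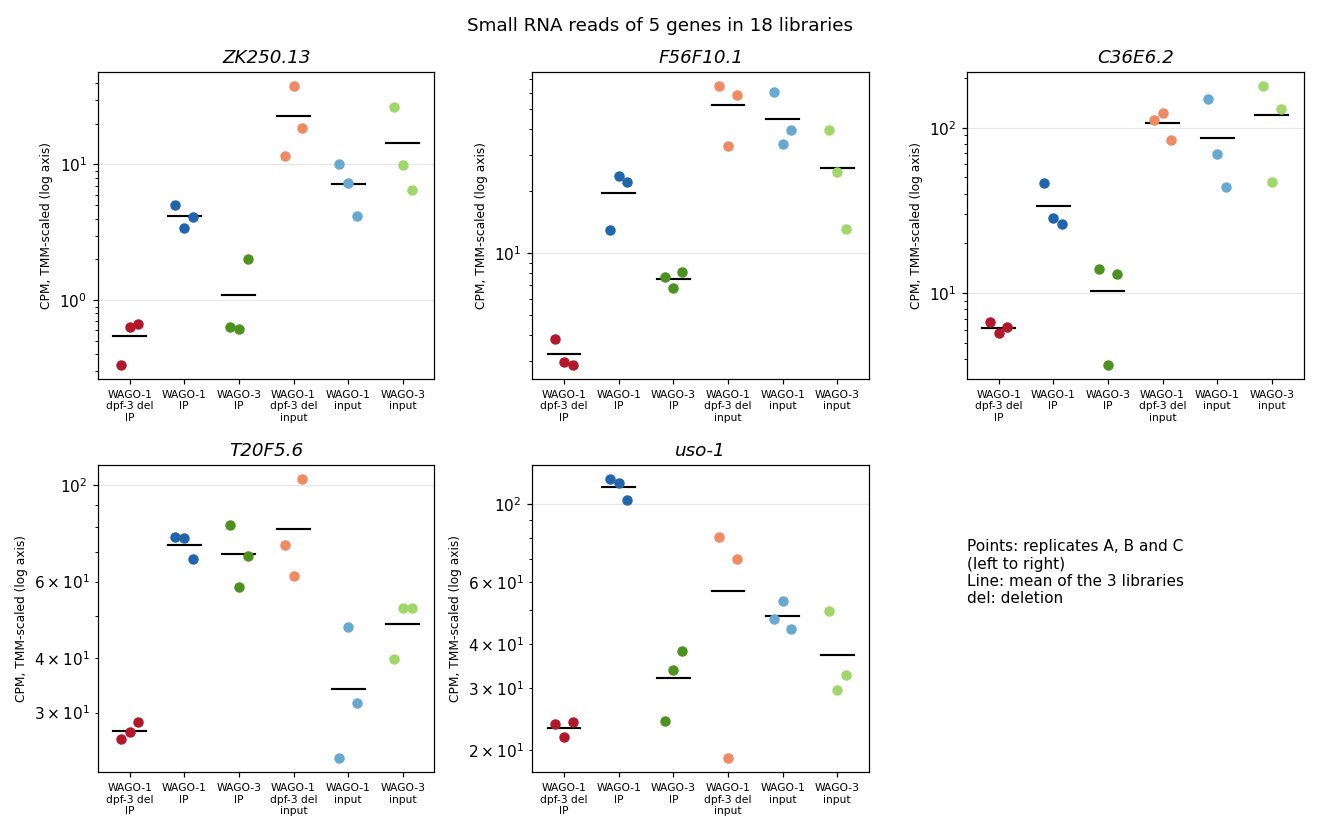
Small RNA level of each gene in every library, as CPM on the TMM scale (log axis), with replicates A to C from left to right in each of the 6 groups and a line at the mean of the 3 libraries. In all 5 panels the deletion IPs lie below the intact IPs without overlap, and for T20F5.6 and uso-1 the intact IPs lie above their inputs.

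All 5 genes had lower levels in the deletion IPs without overlap between the groups. Among all 11648 features tested, 31.8% were called lower in the same comparison and 30.6% higher, with a median log2 fold of 0.07. The libraries compared are among those that chose the genes, so nothing further is read from this count, and no p-value is given for the 5 genes in any comparison of the WAGO-1 groups. The input folds of the 5 genes were all above 0 (0.28 to 1.64), where the median of all features was 0.02.

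Set against its own input, each gene stood below it in the deletion. The log2 fold of IP over input in deletion animals was -5.14 ± 0.67 for ZK250.13, -4.02 ± 0.38 for F56F10.1, -4.06 ± 0.32 for C36E6.2, -1.56 ± 0.24 for T20F5.6 and -1.34 ± 0.27 for uso-1. In intact animals the same fold was -0.76 ± 0.60 for ZK250.13, -1.004 ± 0.26 for F56F10.1 and -1.30 ± 0.24 for C36E6.2, but 0.97 ± 0.21 for T20F5.6 and 1.19 ± 0.18 for uso-1. In the deletion the IP and input libraries of uso-1 overlapped, through input replicate B, and those of the other 4 genes did not. Library by library, the intact IPs of T20F5.6 and uso-1 all lay above the intact inputs, those of F56F10.1 all lay below, and those of ZK250.13 and C36E6.2 overlapped their inputs. With total counts as the scaling the intact folds of T20F5.6 and uso-1 became -0.47 and -0.26, where the median of all features was -0.92, against 0.52 on the TMM scale.

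The contrast of the choice is the change of enrichment, the log2 fold of IP over input in the deletion minus that in intact animals. It was -4.39 ± 0.81 for ZK250.13, -3.02 ± 0.42 for F56F10.1, -2.76 ± 0.36 for C36E6.2, -2.54 ± 0.31 for T20F5.6 and -2.53 ± 0.34 for uso-1. Of all features tested, 0.661% were called lower in this contrast (77, of which 67 were genes) and 1.55% higher, and the 5 genes are among those called lower by choice. By size of the fold they take places 3, 7, 9, 12 and 13 among the 67 genes. Genes of like size that are not among the 5 include K12C11.1 at -2.92 and M57.2 at -2.63 inside their range, and K09C6.2 at -2.49 just beyond it.

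**Figure D2:**
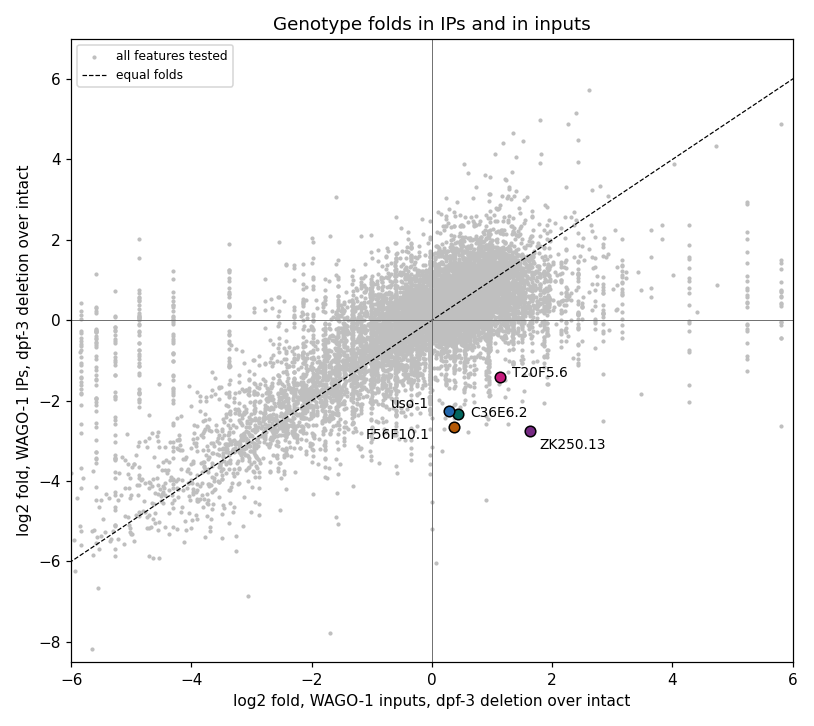
Log2 fold of dpf-3 deletion over intact in the WAGO-1 IPs (vertical) against the same fold in the WAGO-1 inputs (horizontal) for the features tested, with the 5 genes in colour and a dashed line where both folds are equal. The 5 genes lie below the line, with IP folds of -1.41 to -2.75 and input folds of 0.28 to 1.64, and 324 of the 11648 features fall outside the axes.

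The size of the change followed the scaling, while its sign did not. With all counted reads as the scaling the change was -3.42 for ZK250.13, -1.98 for F56F10.1, -1.72 for C36E6.2, -1.49 for T20F5.6 and -1.48 for uso-1, where the median of all features stood at 1.14. With total feature counts it was -4.09, -2.66, -2.40, -2.17 and -2.16 for the same genes in the same order, against a median of 0.46. It stayed below 0 for all 5 genes in every alternative run, leaving out single libraries included.

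**Figure D3:**
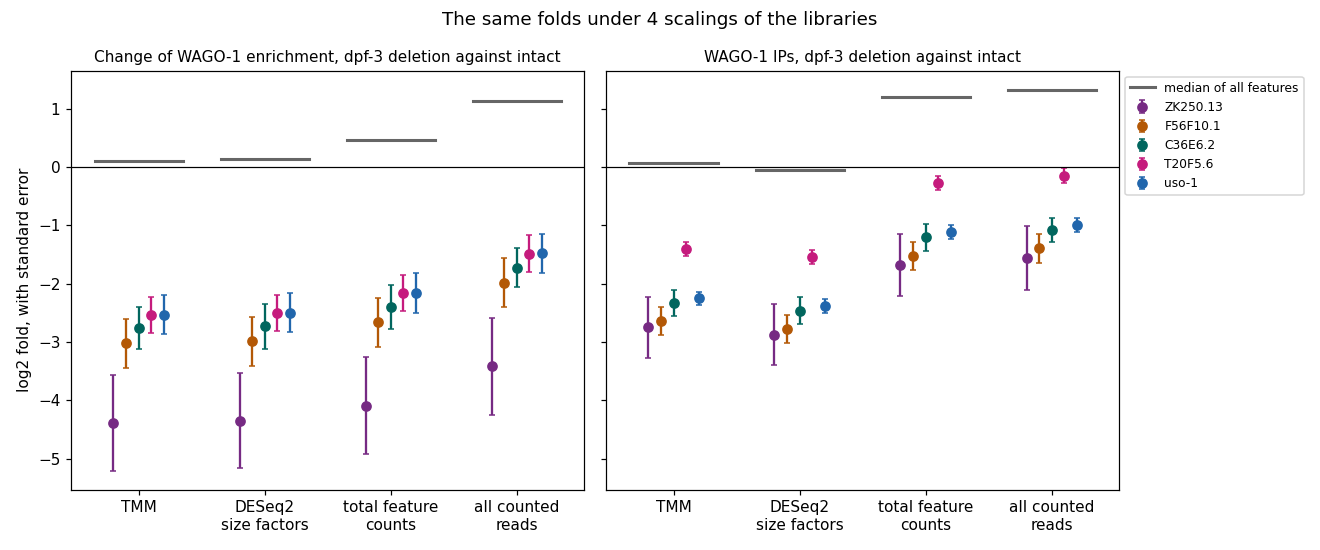
Log2 folds of the 5 genes with standard errors under 4 scalings of the libraries, for the change of enrichment (left) and for the WAGO-1 IPs of the deletion against intact (right), with a grey bar at the median of all features. The 5 genes lie below the median under each scaling, and T20F5.6 comes nearest to 0 in the IPs at -0.15 with all counted reads.

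The WAGO-3 libraries took no part in the choice, and there 3 of the 5 genes fell in the IP relative to its input, 1 rose and 1 did not pass the test. Across all features, 26.8% were called lower in the WAGO-3 IP and 34.8% higher. ZK250.13 had 0.638, 0.613 and 2.02 CPM in the WAGO-3 IPs, against 26.5, 9.92 and 6.53 CPM in the WAGO-3 inputs. The IPs lay below every input on only 4 reads, and the log2 fold was -3.76 ± 0.77 (SE, edgeR adjusted p = 9.39e-06). F56F10.1 stood at 7.65, 6.74 and 8.07 CPM in the IPs and at 39.8, 24.8 and 13.1 CPM in the inputs, a fold of -1.79 ± 0.43 (edgeR adjusted p = 0.000148) with no overlap.

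C36E6.2 had 14.03, 3.68 and 13.1 CPM in the WAGO-3 IPs and 179, 47.1 and 131 CPM in the WAGO-3 inputs. Replicate B was the lowest library on both sides, the groups did not overlap, and the log2 fold was -3.51 ± 0.31 (edgeR adjusted p = 4.36e-20). For these 3 genes the direction and the call held in every alternative run, with the largest adjusted p at 0.0219.

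T20F5.6 was the one that rose, and only just, with 81.0, 58.2 and 68.6 CPM in the WAGO-3 IPs against 39.8, 52.1 and 52.2 CPM in the inputs, a log2 fold of 0.52 ± 0.23 (edgeR adjusted p = 0.0417). The lowest IP library lay above the highest input library by a small margin. The call was lost with DESeq2 size factors (0.38, adjusted p = 0.136), and with total counts the gene was lower in the IP (-1.12, adjusted p = 6.42e-05), where the median of all features moved to -1.39. It was also lost when replicate A (0.26) or C (0.41) of the WAGO-3 IP or replicate A of its input (0.44) was left out. For uso-1 the WAGO-3 IPs had 24.23, 33.7 and 38.3 CPM, against 49.7, 29.8 and 32.6 CPM in the inputs. These overlapped, and the log2 fold of -0.22 ± 0.29 had a 95% interval of -0.79 to 0.34 (edgeR adjusted p = 0.513). uso-1 passed the test as lower with total counts (-1.86, edgeR adjusted p = 2.60e-07), with all counted reads (-0.67, edgeR adjusted p = 0.0422) and with only the groups compared (-0.80, edgeR adjusted p = 0.0131).

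**Figure D4:**
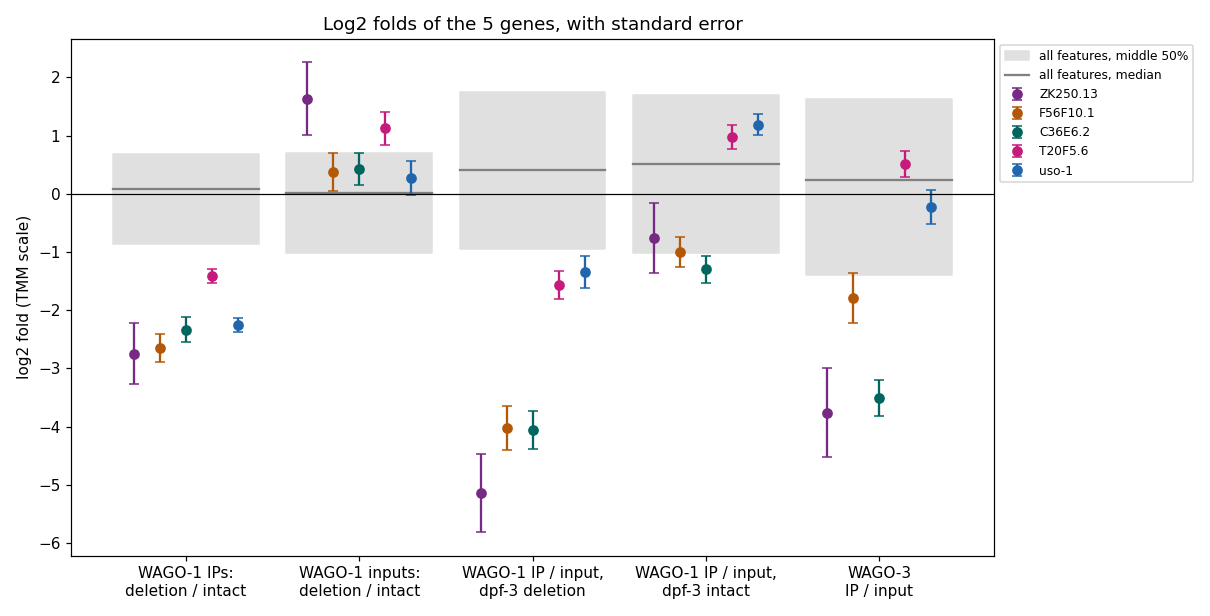
Log2 folds of the 5 genes with standard errors in 5 comparisons, on the TMM scale, with the middle 50% and the median of all features in grey. ZK250.13, F56F10.1 and C36E6.2 lie below 0 in each IP against its input, while T20F5.6 and uso-1 lie at 0.97 and 1.19 in the intact WAGO-1 IP against input.

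Ordered by mean level on the TMM scale, the 6 groups form 2 patterns. ZK250.13, F56F10.1 and C36E6.2 had their 3 inputs on top, each overlapping the next in order (the deletion and intact inputs of ZK250.13, which are not next to each other, did not overlap), then the intact WAGO-1 IP, then the WAGO-3 IP and last the deletion IP. In each of these 3 genes the lowest of the inputs by mean overlapped the intact WAGO-1 IP. The step from the intact WAGO-1 IP to the WAGO-3 IP had no overlap in any of them, and the last step had none for F56F10.1 only. uso-1 was highest in the intact WAGO-1 IP (112 ± 8.11 CPM), clear of the 4 groups between and of the deletion IP (23.2 ± 1.19 CPM). The deletion IP was lowest, but its highest library (24.02 CPM) lay only just below the lowest WAGO-3 IP (24.23 CPM). In that WAGO-3 library 1 read is 0.638 CPM, so this step is not a clear separation. T20F5.6 had the deletion input, the intact WAGO-1 IP and the WAGO-3 IP at 79.2, 73.0 and 69.3 CPM with overlapping ranges. The other 3 groups were lower, with the deletion IP last at 27.2 ± 1.27 CPM, inside the range of the intact input. With total counts the order was another one. The deletion IP then averaged above the WAGO-3 IP for ZK250.13 (0.595 against 0.484 CPM) and F56F10.1 (3.48 against 3.31 CPM). The same held for C36E6.2 (6.715 against 4.533 CPM) and uso-1 (25.1 against 14.2 CPM), but not for T20F5.6 (29.5 against 30.5 CPM). On that scale uso-1 was highest in the deletion input (128 CPM), with 54.8 CPM in the intact WAGO-1 IP.

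Per kilobase of annotated span, introns included, the deletion IP held 5.49 CPM of T20F5.6, 2.46 of uso-1, 1.78 of C36E6.2, 0.962 of F56F10.1 and 0.203 of ZK250.13. The intact WAGO-1 IP kept that order, at 14.7, 11.9, 9.68, 5.85 and 1.56 CPM per kilobase. In the intact input the order was another one, with C36E6.2 at 25.03, F56F10.1 at 13.4, T20F5.6 at 6.86, uso-1 at 5.10 and ZK250.13 at 2.68 CPM per kilobase.

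Across the 18 libraries, which share depth and assay, the log2 levels of ZK250.13, F56F10.1 and C36E6.2 ran together, with Pearson correlations of 0.858 to 0.924 between them. T20F5.6 and uso-1 correlated at 0.474 with each other and at 0.184 to 0.515 with those 3. Among 6059 genes with at least 20 CPM in a group, the closest to ZK250.13 after C36E6.2 were Y54F10BM.3 (0.891) and egl-4 (0.868), a cyclic GMP-dependent protein kinase gene. The closest to F56F10.1 were C01A2.1 (0.865), C36E6.2 (0.864) and WBGene00018690 (0.862), and to C36E6.2, after ZK250.13, Y17D7B.10 (0.900) and C36A4.11 (0.897).

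The matches of T20F5.6 were led by set-21 (0.782), snrp-200 (0.781), a spliceosomal helicase gene, and plx-1 (0.771), a plexin gene. The gene most like uso-1 was C06A1.3 (0.868), which averaged 15.7 CPM in the deletion IP and 124 CPM in the intact IP, followed by ppk-3 (0.797), a phosphoinositide kinase gene, and gldi-6 (0.781). The 99th percentile of the correlations over all genes compared was 0.478 for T20F5.6 and 0.568 for uso-1, against 0.777 to 0.829 for the other 3 genes. These correlations describe 18 libraries that fall into 6 groups.

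The genes next to the 5 were examined in the same comparisons. Up to 3 genes on each side gave 30 neighbours, of which 17 passed the filter on low counts. None of the 17 was called in the change of enrichment (edgeR), with 2 at an unadjusted p under 0.05 and 0 called by DESeq2, against 0.661% lower and 1.55% higher among all features. With total counts 3 of them were higher, where 7.41% of all features were. When an intact IP was left out 4 of the 13 then tested were higher, where 22.7% to 25% of all features were. Between the IPs 10 of the 17 fell and 2 rose, where 31.8% of all features fell and 30.6% rose. With total counts as the scaling 4 fell and 6 rose, where 16.9% of all features fell and 69.2% rose. Between the inputs 3 of the neighbours fell and 1 rose, where 14.9% of all features fell and 8.61% rose.

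Around T20F5.6, 2 neighbours rose between the IPs. T20F5.7 starts 271 bases after it and had 26.7 ± 1.95 CPM in the deletion IPs, against 10.4 ± 3.24 CPM in the intact IPs (log2 fold 1.33 ± 0.19, edgeR adjusted p = 2.49e-10). The gene egg-4, which encodes a pseudophosphatase of the oocyte-to-embryo transition, rose in IPs and inputs, by 0.96 ± 0.15 between IPs and 1.18 ± 0.21 between inputs (edgeR adjusted p = 4.79e-09 and 1.56e-06). T20F5.5, which overlaps T20F5.6 by 48 bases, did not pass (-0.53 ± 0.25, edgeR adjusted p = 0.0524).

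Next to uso-1, mam-3 ends 14 bases away and fell in the IPs, with 13.3 ± 1.42 CPM in the deletion and 29.4 ± 7.94 CPM in intact animals (-1.203 ± 0.16, edgeR adjusted p = 5.91e-11, n = 3 each). Its value with total counts was -0.07. Near C36E6.2, fubl-3 lies 14310 bases away and fell in the IPs, at 14.7 ± 2.89 CPM in the deletion and 68.2 ± 19.1 CPM in intact animals (-2.13 ± 0.14, edgeR adjusted p = 5.94e-29), while its change of enrichment did not pass (-1.36 ± 0.66, edgeR adjusted p = 0.382).

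Other neighbours moved in both kinds of library. Farther from uso-1, K09B11.4 fell in IPs and inputs alike, by 1.77 ± 0.07 and 2.02 ± 0.13 on the log2 scale (edgeR adjusted p = 1.55e-51 and 3.93e-29), so that its change of enrichment was 0.25 ± 0.16. ZK250.2, near ZK250.13, did likewise, by 1.71 ± 0.07 between IPs and 2.05 ± 0.20 between inputs (edgeR adjusted p = 1.57e-46 and 2.00e-17).

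**Figure D5:**
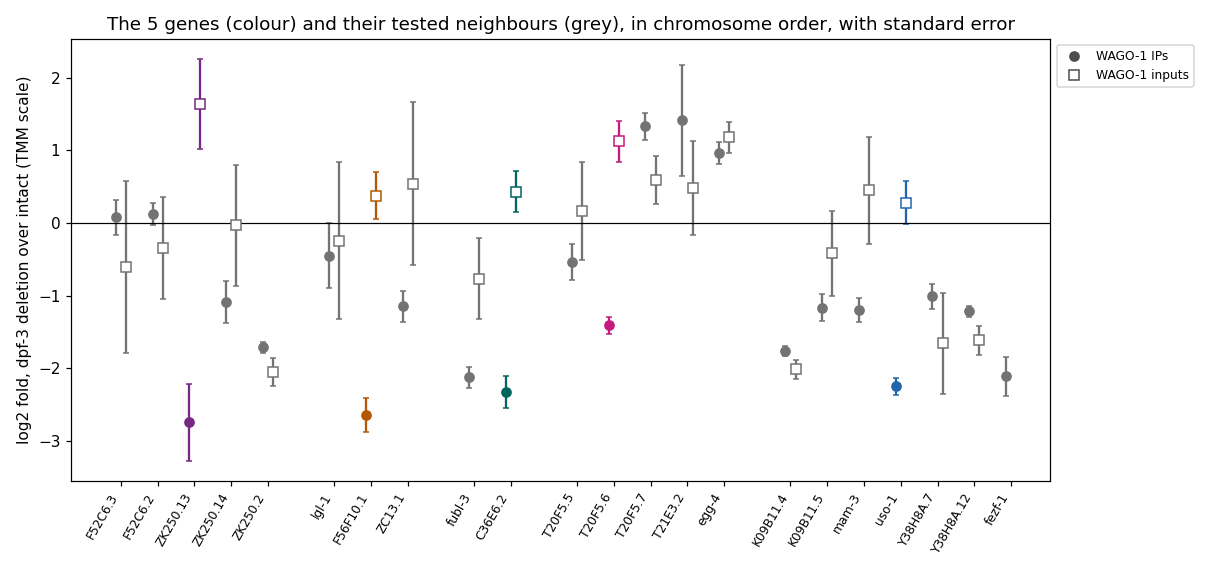
Log2 fold of dpf-3 deletion over intact, with standard error, in the WAGO-1 IPs (filled circles) and the WAGO-1 inputs (open squares) for the 5 genes in colour and their 17 tested neighbours in grey, in chromosome order. In the 5 genes, which were chosen on these libraries, the IP lies below 0 and the input above it. The neighbours mam-3, ZC13.1 and T20F5.5 also have an IP below 0 and an input above it, with input standard errors that cross 0. ZK250.2 and K09B11.4 lie near -2 in both, and fezf-1 has no input point because its deletion inputs held 0 reads.

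The table also counts unnamed genomic intervals, 29 of which lie within 2000 bases of the 5 genes and 2 of which passed the filter. One covers chromosome II from 1935481 to 1937092 on the plus strand and overlaps ZK250.13 by 30 bases by the coordinates as written. It held far more reads than the gene, 1074 in the deletion IPs and 2729 in the intact IPs, with 37 and 329 in the inputs of the same strains. It fell by 2.64 ± 0.09 between the IPs and by 2.17 ± 0.21 between the inputs (edgeR adjusted p = 1.87e-59 and 9.64e-17), and its change of enrichment did not pass (-0.46 ± 0.27, edgeR adjusted p = 0.518). In the WAGO-3 IP it rose by 2.44 ± 0.10 over input (edgeR adjusted p = 3.09e-47), opposite to ZK250.13. The other, on chromosome X from 872052 to 872297 and 305 bases from F56F10.1, fell by 1.46 ± 0.17 in the IPs (edgeR adjusted p = 2.42e-13).

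The pathway of uso-1 was followed with 44 genes of ER-to-Golgi transport, the coat proteins, tethers, SNAREs and small GTPases that move cargo between these organelles, of which 36 were tested. In the WAGO-1 IPs 20 of the 36 rose in the deletion and 2 fell, with a median log2 fold of 0.42, against 0.07 for all features, where 30.6% rose and 31.8% fell. The tether subunit gene cogc-8 had 248 ± 6.57 CPM in the deletion IPs and 82.2 ± 4.80 CPM in the intact IPs (1.59 ± 0.09, edgeR adjusted p = 2.94e-34), and rab-1, the GTPase that recruits p115 in mammals, had 17.8 ± 2.28 and 4.68 ± 1.74 CPM in these groups (2.02 ± 0.26, edgeR adjusted p = 3.97e-12). uso-1 itself was at -2.25, but it was chosen for its fall in these IPs, so its sign is not set against theirs. With total counts 35 of the 36 were higher and 0 lower (median 1.55), where 69.2% of all features were higher. When an intact IP was left out, 26 to 28 of the 31 then tested were higher and 0 lower. Among all features 55.3% to 57.9% were then higher and 22.9% to 23.7% lower. In the change of enrichment 1 of the 36 was higher and 1 lower, where 1.55% and 0.661% of all features were. On the scale of all counted reads 15 were higher and 0 lower, where 33.2% of all features were higher. Without an intact IP 8 of 31 were higher, where 22.7% to 25% of all features were.

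In the WAGO-3 IP relative to its input 17 of the 36 fell and 5 rose, where 26.8% of all features fell and 34.8% rose, with a median of -0.77 against 0.23 for all features. With total counts 30 fell and 0 rose (median -2.40), where 52.1% of all features fell and 10.2% rose. Without replicate B of the inputs 11 of 38 fell, where 17.1% of all features did. The SNARE gene syx-5 had 4.26 ± 0.22 CPM in the WAGO-3 IPs and 19.5 ± 6.14 CPM in the inputs (-2.11 ± 0.50, edgeR adjusted p = 0.000127). The coat gene copz-1 had 1.39 ± 1.02 and 9.33 ± 5.80 CPM (-2.73 ± 0.79, edgeR adjusted p = 0.00174), a call lost without replicate B of the inputs.

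For the family of F56F10.1, the S28 peptidases pcp-1 to pcp-5, K12H4.7 and C26B9.5, 5 of 7 were tested. All 5 fell in the WAGO-3 IP relative to its input, as F56F10.1 did, where 26.8% of all features fell, but each on at most 3 IP reads. K12H4.7 had 1 IP read and 15 input reads, a scaled ratio of 0.0161 (exact 95% interval 0.000382 to 0.105, counting error), and pcp-1 had 2 and 15 reads, a ratio of 0.0322 (0.00357 to 0.138). Between the WAGO-1 IPs none of the 5 was called by edgeR, none had an unadjusted p under 0.05 and DESeq2 called 0, with a median log2 fold of -0.31 that became 0.79 with total counts.

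Among the dipeptidyl peptidase genes related to dpf-3, 4 were tested and 1 rose between the WAGO-1 IPs, where 30.6% of all features rose. It was dpf-5, at 52.3 ± 1.77 CPM in the deletion and 43.9 ± 2.06 CPM in intact animals (0.26 ± 0.12, edgeR adjusted p = 0.0488), while DESeq2 called 0. With total counts 3 of the 4 were higher, where 69.2% of all features were. Without any 1 of the intact IPs 3 of the 4 were also higher, where 55.3% to 57.9% of all features were. Small RNAs over marker genes of germline and somatic tissues also differed between the WAGO-1 IPs, and their part in the results above was not tested. Levels were summed over 19 spermatogenesis genes, all with reads. The sum was 140 to 148 CPM in the deletion IPs and 279 to 296 CPM in the intact IPs. In the inputs it was 981 to 1120 CPM in the deletion and 662 to 767 CPM in intact animals. Most of the difference between the IP sums came from spe-41, at 26.8 CPM in the deletion and 154.5 CPM in intact animals. The difference between the input sums came mainly from spe-12, at 601 CPM in the deletion and 229 CPM in intact animals. Gene by gene 2 of the 19 rose and 3 fell between the IPs, where 30.6% of all features rose and 31.8% fell. Their median log2 fold was 0.26. Scaled by total counts, 13 were higher and 1 lower, where 69.2% of all features were higher and 16.9% lower. The summed level over 4 muscle genes was 305 to 365 CPM in the deletion IPs and 487 to 533 CPM in the intact IPs. Over 5 neuronal genes the sums were 139 to 149 CPM and 88.7 to 106 CPM (with unc-47 at 0 in the deletion IPs). Over 8 oogenesis genes they were 191 to 209 CPM and 164 to 185 CPM. Only 1 of the muscle genes passed the filter on low counts, and it fell (log2 fold -0.61) but was higher with total counts (0.53) and did not pass without any 1 of the intact IPs. Sums over 11 intestinal genes overlapped, at 23.7 to 26.7 CPM in the deletion IPs and 25.5 to 32.7 CPM in the intact IPs.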

How the data were processed

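The authors deposited raw read counts per gene and per unnamed interval (75393 features, 55259 of them intervals) for 18 libraries, all matched by title. Listed without their roles are HTSeq 0.11.2, SAMtools 1.9, cutadapt 2.3 and Bowtie 1.2.3, with build ce11, per the submitters' processing notes. Not given in the sources used here are the gene annotation, whether counting used strand, how reads with several positions were treated and whether molecules were counted once. Reads of overlapping genes or of opposite strands may therefore be mixed. Reads outside all features were 32.5% to 38.6% of reads in the IPs and 68.6% to 82.4% in the inputs, and entered neither library sizes nor tests. Gene positions are from the RefSeq table of assembly WBcel235, which is ce11.

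A model with a mean for each group was fitted to all 18 libraries by quasi-likelihood in edgeR 4.0.16 (R 4.3.3), with TMM factors of 0.434 to 2.38. The filter filterByExpr (minimum count 10) left 11648 features, of which 9869 were genes, and all 5 genes passed. A feature was called where its p-value, adjusted over all features by Benjamini-Hochberg, was below 0.05. SE is the absolute log2 fold over the square root of F. The script was tested on simulated counts. Exact 95% intervals cover counting error only, since reads may be copies of 1 molecule.

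The 5 genes and all gene lists were chosen with earlier results of these data known. Named are the 5 genes, neighbours, the targeted genes, up to 3 called list members with the largest absolute log2 fold per comparison, and the 3 genes most correlated with each of the 5 (log2 CPM, prior count 1), not all of which are printed. Alternatives were DESeq2 1.42.0 (test and size factors), total counts, all counted reads, no filter, only the groups compared, the replicate block and leaving out each library.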

Additional observations from a re-analysis of the deposited data

Results flagged for a closer look

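Beside the 5 genes, 121 features of the lists, neighbours and targeted genes were tested, and for 11 of them the WAGO-1 enrichment differed between dpf-3 deletion and intact animals by the edgeR test of that difference. Among all features 1.55% were called higher and 0.661% lower. The values are log2 changes of enrichment, deletion minus intact, with adjusted p-values over all features.

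Of the small RNA pathway genes, ppw-2, which encodes WAGO-3, was higher by 2.95 ± 0.16 (adjusted p = 3.99e-34). The scaffold gene mut-16 was higher by 1.86 ± 0.29 (adjusted p = 1.33e-06), the Argonaute gene csr-1 by 1.56 ± 0.18 (adjusted p = 1.39e-11) and the RNA polymerase gene ego-1 by 1.11 ± 0.23 (adjusted p = 0.000486). These 4 calls held in every alternative run. The helicase gene drh-3 was higher by 1.30 ± 0.35 (adjusted p = 0.0183), wago-1 by 1.21 ± 0.32 (adjusted p = 0.0144) and wago-4 by 0.62 ± 0.16 (adjusted p = 0.0125), and each of these was lost without 1 or another of the deletion IPs. The Piwi gene prg-1 was lower by a log2 change of -0.41 ± 0.12 (adjusted p = 0.0454), a call lost with DESeq2 and with total counts (-0.03). It was also lost with all counted reads, without the filter and with only the groups compared. Leaving out any intact WAGO-1 IP or any WAGO-1 input, deletion or intact, lost it too.

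In ER-to-Golgi transport, tfg-1, an ER exit site gene, had a change of -1.23 ± 0.28 (adjusted p = 0.00225), lost when any of the intact WAGO-1 IPs was left out. It was also lost with all counted reads, without the filter, with only the groups compared and without replicate A of the deletion inputs. The GTPase gene rab-1 was higher by 1.68 ± 0.50 (adjusted p = 0.0453), lost when any of the deletion IPs was left out. The rab-1 call was also lost without replicate B of the deletion inputs and without replicate B of the intact inputs. The sperm gene fer-1 had a change of -1.43 ± 0.36 (adjusted p = 0.0114), lost with total counts (-1.06, adjusted p = 0.053). The fer-1 call was also lost with all counted reads, without the filter and with only the groups compared. Leaving out any intact WAGO-1 IP, replicate A or C of the deletion inputs or replicate B of the intact inputs lost it as well.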

How the results depend on the processing

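The change of enrichment of the 5 genes kept its sign throughout, as did their IP folds. With total counts as the scaling, features called in the WAGO-3 IP against input numbered 1185 higher and 6063 lower (4048 and 3122 as reported), and 2637 higher with only the groups compared. Between the WAGO-1 IPs they were 8062 higher and 1972 lower (total counts), or 8357 and 1824 (all counted reads as the scaling), against 3559 and 3709 as reported. In the change of enrichment (181 higher and 77 lower as reported) they were 863 and 44 (total counts), 3862 and 20 (all counted reads), 814 and 21 without the filter, and 2365 and 31 with only the groups compared. Leaving out single libraries gave 99 to 2117 higher and 30 to 134 lower in the change, 2629 to 4906 higher and 1941 to 2752 lower between the IPs, and 3098 to 4093 higher and 2485 to 2782 lower in the WAGO-3 IP. TMM took a WAGO-1 input as its reference when an intact WAGO-1 IP or a WAGO-3 IP was left out, where the reported fit took a deletion IP.

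T20F5.6 in the WAGO-3 IP moved to 0.38 with DESeq2 size factors, 0.38 with the DESeq2 Wald test, 0.063 with all counted reads, 0.36 without the filter, -0.064 with only the groups compared and -1.12 with total counts, and to 0.26 to 0.66 with a library left out. For uso-1 the values were -1.86 with total counts, -0.67 with all counted reads and -0.80 with only the groups compared, and -0.44 to 0.052 with a library left out. With total counts the intact IP to input folds turned, T20F5.6 to -0.47 and uso-1 to -0.26, and the uso-1 input fold ran from -0.090 to 0.57 with a library left out. The cause of these shifts was not tested.

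Same-lettered IPs and inputs did not deviate together (correlations of -0.03 to 0.02 over 6555 features), and the letters were not taken as pairs. The inputs held few reads per feature, so these correlations cannot show that the letters are unpaired. The replicate block left 174 higher and 73 lower in the change of enrichment and put T20F5.6 at 0.50 in the WAGO-3 IP, where its call was lost (edgeR adjusted p = 0.0519). ZK250.13 did not pass the filter in some fits of only the groups compared and has no value there. Low counts limit ZK250.13 most, with 4 to 27 reads per IP group and 10 to 16 per input group.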

Other observations

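Among 21 genes listed for the 22G RNA pathway, 16 rose and 1 fell in the WAGO-1 IPs of the dpf-3 deletion against those of intact animals. Their median log2 fold was 1.00, and of all features 30.6% rose and 31.8% fell. The gene of WAGO-3, ppw-2, had 1289 ± 3.42 CPM in the deletion IPs and 58.3 ± 0.75 CPM in the intact IPs (SD, n = 3 each, log2 fold 4.46 ± 0.09, edgeR adjusted p = 1.09e-81). The scaffold gene mut-16 had 142 ± 6.02 CPM in the deletion IPs and 25.7 ± 1.198 CPM in the intact IPs (2.45 ± 0.12, edgeR adjusted p = 5.67e-41). With total counts 20 of the 21 rose and 0 fell, where 69.2% of all features rose and 16.9% fell. In the WAGO-3 IP relative to its input 8 rose and 5 fell, where 34.8% of all features rose and 26.8% fell. The rise was led by the Piwi gene prg-1, with 4999 ± 250 CPM in the IPs and 708 ± 47.9 CPM in the inputs (2.82 ± 0.09, edgeR adjusted p = 1.39e-61). Scaled by total counts, the split turned to 1 higher and 17 lower, where 10.2% of all features were higher and 52.1% lower.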
